A study of Homo sapiens with 9 samples.

Results

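Transforming growth factor beta (TGF-beta) signaling genes were examined in PC3 cells co-cultured with osteoblasts. The genes comprise the ligands TGFB1 and TGFB2, the receptors TGFBR1, TGFBR2 and TGFBR3, the signal transducers SMAD2, SMAD3 and SMAD4, and the repressors SKI and SKIL. They were chosen by gene symbol, with earlier results of these data known, and their shares set beside all probe sets below are therefore descriptive. They are 10 of 19775 genes with a probe set of their own on the array. The array carries 37 probe sets for them (a probe set is a group of short oligonucleotides that measures 1 transcript region). Of these, 29 were bright enough to test, and 8 lay below the filter, which asked for the 40th percentile of an array on at least 2 arrays. All 10 genes kept at least 2 probe sets. No member probe set was annotated to a second gene.

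PC3 is a human prostate cancer cell line derived from a bone metastasis, and its RNA was hybridized after 48 h to 9 arrays of the type Affymetrix Human Genome U133 Plus 2.0. There were 2 arrays of PC3 cells grown with Sost knockout mouse osteoblasts (OB SostKO), 2 with wild type mouse osteoblasts and 100 ng/ml recombinant human DKK1 (OB WT + rhDKK1), 3 with wild type mouse osteoblasts and 100 ng/ml recombinant human SOST (OB WT + rhSOST), and 2 of PC3 cells cultured alone (untreated PC3). DKK1 and SOST are secreted antagonists of Wnt signaling. The osteoblasts grew on inserts above the PC3 cells, and the study describes them as isolated from the calvaria of neonatal Sost knockout or C57BL/6N control mice. Its methods name the wild type mice as C57BL/6J instead. The number of mice behind the arrays is not given in the sources used here. No group with wild type osteoblasts and no added protein was analysed here, so the effect of the osteoblasts and that of the added protein cannot be told apart. Within a group, the arrays are labelled as biological replicates. Each co-culture was compared with the same 2 untreated arrays, and the 3 comparisons are therefore not independent.

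TGF-beta ligands are secreted in a latent form and, once released, bring together the type II receptor TGFBR2 and the type I receptor TGFBR1, a pair of kinases. TGFBR1 phosphorylates SMAD2 and SMAD3, which join SMAD4 and move to the nucleus to regulate transcription. SKI and its relative SKIL (SnoN) bind these SMADs and repress their targets, and bone matrix is a known store of TGF-beta for prostate cancer cells that reach the skeleton.

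Array medians lay between 5.45 and 5.52 on the log2 scale. KRT8, KRT18, EPCAM, CD44 and VIM, which PC3 cells are known to express, were at 11.51 or higher on all arrays, and KLK3, a luminal prostate gene that they are known to lack, lay between 6.71 and 7.16 in co-cultures and between 6.93 and 7.34 in untreated PC3. Of the 7 osteoblast markers analysed, 4 passed the filter, and none passed the test below in the mean of the co-cultures. COL1A1, the brightest, lay between 8.68 and 9.77 in co-cultures and between 8.92 and 9.13 in untreated PC3. The untreated arrays stood apart in technical controls. Added before labeling, the poly-A control RNAs averaged 6.65 ± 0.28 (SD, n = 7) on co-culture arrays and 11.32 ± 0.48 (SD, n = 2) on untreated arrays (exact two-sided permutation test, p = 0.0278, the smallest this design allows). The hybridization controls averaged 10.44 on co-culture arrays and 11.01 on untreated arrays, and the 3' minus 5' difference of ACTB averaged 1.38 on co-culture arrays and 0.69 on untreated arrays (exact two-sided permutation test, p = 0.0278 each). That of GAPDH was 0.20 on co-culture arrays and 0.19 on untreated arrays (p = 0.917, same exact test). The poly-A, hybridization and ACTB values moved with every comparison against untreated PC3 below. What they reflect cannot be told apart from the co-culture.

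Few of the 29 probe sets passed the test against untreated PC3. In limma's moderated test across all 33970 kept probe sets, with Benjamini-Hochberg adjusted p under 0.05 as the threshold, the same 2 member probe sets were higher in each co-culture and none was lower. They were TGFBR3 226625_at and SKIL 217591_at. This is 6.9% of the members in each comparison, against 1.62% of all kept probe sets for OB SostKO (0.901% higher and 0.718% lower), 1.75% for OB WT + rhDKK1 (1.03% and 0.721%) and 3.99% for OB WT + rhSOST (2.66% and 1.32%). In the mean of the 3 co-cultures against untreated PC3, 3 member probe sets were higher and 1 was lower, which is 13.79% against 7.19% of all. SMAD4 235725_at and SMAD3 205397_x_at were the additional ones. The median log2 fold change in that comparison was 0.01 over the members and 0.0017 over all kept probe sets. At an unadjusted p, 9 member probe sets had p under 0.05 in the mean of the co-cultures, against 24.7% of all kept probe sets. The same count was 9 for OB SostKO, 7 for OB WT + rhDKK1 and 8 for OB WT + rhSOST, against 18.9%, 19.0% and 20.9% of all. With a 2-fold change also required, it was 2, 1 and 0, and 1 in the mean, against 0.812%, 0.692%, 0.394% and 0.577% of all. All 7 co-culture arrays lay above both untreated arrays for 6 of the 29 (20.69%, against 13.1% of all) and below both for 3 (10.34%, against 10.6% of all). The RNA of all cells in a well was pooled, so a change in every cell and a change in a share of the cells cannot be told apart.

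**Figure D1:**
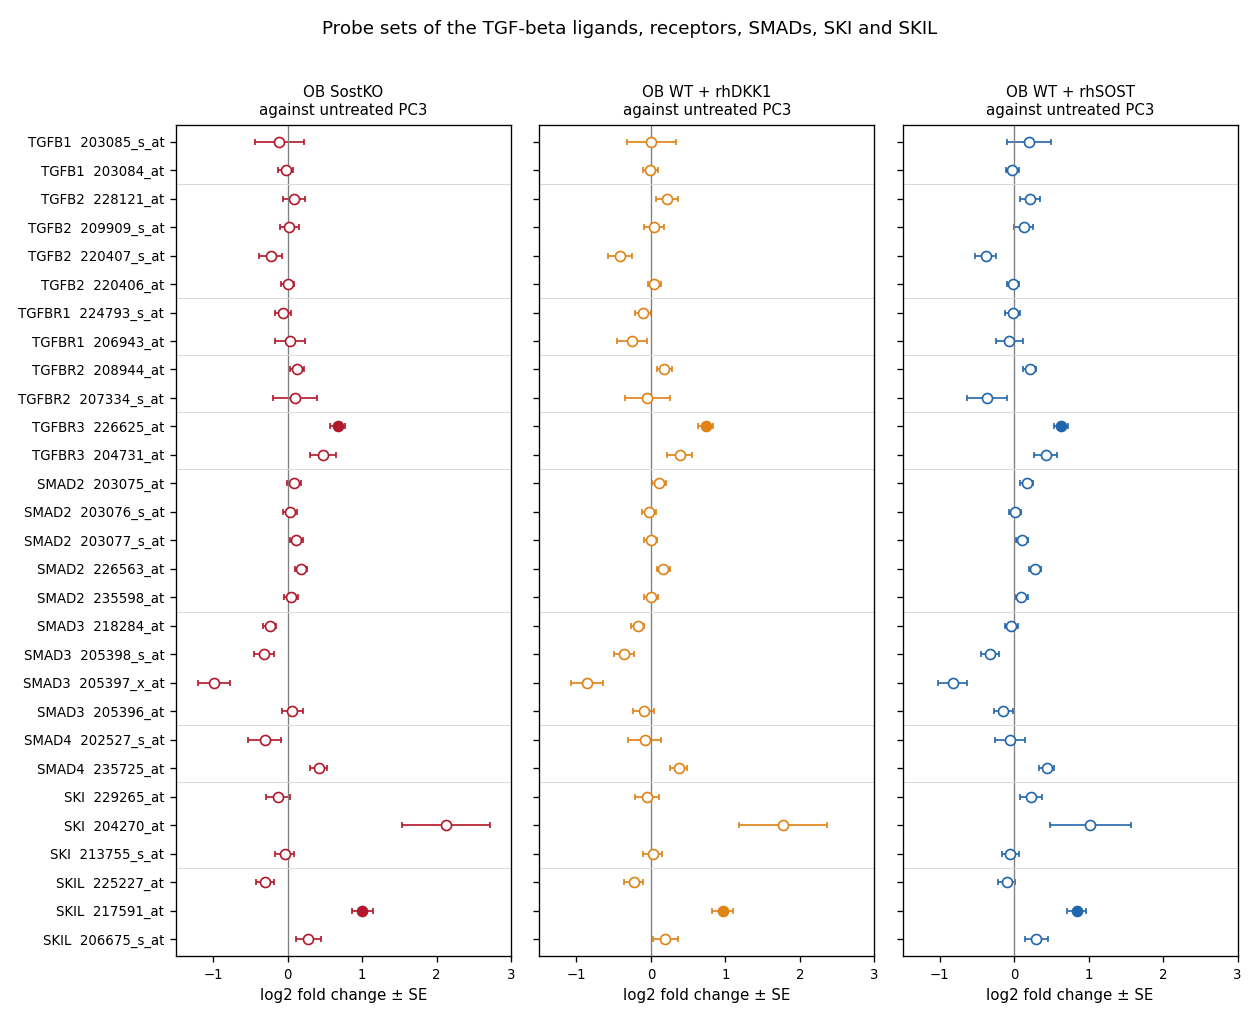
Log2 fold change (x axis, ± SE) of the 29 kept probe sets (rows, grouped by gene) for OB SostKO (left), OB WT + rhDKK1 (middle) and OB WT + rhSOST (right), each against untreated PC3. Filled points passed an adjusted p under 0.05, which TGFBR3 226625_at and SKIL 217591_at did in all 3 panels, while SKI 204270_at had the largest values, 2.13, 1.77 and 1.02, with the widest error bars.

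No ligand probe set passed the threshold with all arrays. TGFB1 encodes the prototype ligand. Its probe set 203085_s_at read 7.98 and 8.84 for OB SostKO, 8.89 and 8.17 for OB WT + rhDKK1, 8.92, 8.38 and 8.88 for OB WT + rhSOST, and 8.45 and 8.60 in untreated PC3. The untreated arrays lay inside the range of the co-cultures, and arrays of 1 co-culture differed by up to 0.86. The other TGFB1 probe set, 203084_at, stayed between 6.01 and 6.20 in co-cultures and between 6.001 and 6.22 in untreated PC3. The log2 fold changes of the mean of the co-cultures were 0.03 ± 0.26 and -0.02 ± 0.08 (SE), adjusted p = 0.956 and 0.909.

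TGFB2 encodes a second ligand of the same receptors. Its brightest probe set, 228121_at, read between 10.30 and 10.81 in co-cultures and 10.36 and 10.35 in untreated PC3, a log2 fold change of 0.17 ± 0.12 (SE) in the mean of the co-cultures (adjusted p = 0.416). TGFB2 220407_s_at ran the other way. It read 8.05 and 8.15 for OB SostKO, 8.18 and 7.64 for OB WT + rhDKK1, 7.97, 7.90 and 7.95 for OB WT + rhSOST, and 8.39 and 8.26 in untreated PC3. All 7 co-culture arrays were below both untreated arrays. The log2 fold change in the mean was -0.34 ± 0.13 (SE) and did not pass (adjusted p = 0.145). With each array left out in turn it ran from -0.43 to -0.25. The difference between these probe sets, 220407_s_at minus 228121_at, was -0.51 ± 0.19 (SE) on the log2 scale and did not pass either (adjusted p = 0.182). TGFB2 209909_s_at and 220406_at had log2 fold changes of 0.06 and 0.01 in the mean of the co-cultures. TGFB2 209908_s_at, below the filter, lay between 3.38 and 4.41 in co-cultures, under both untreated arrays at 4.55 and 4.95, and was not tested.

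No probe set of either kinase receptor passed the threshold. TGFBR1, the type I receptor kinase, had log2 fold changes of -0.07 ± 0.09 for 224793_s_at and -0.10 ± 0.16 for 206943_at (SE) in the mean of the co-cultures, adjusted p = 0.686 and 0.751. TGFBR1 236561_at was below the filter, at 4.36 or less on all arrays. TGFBR2 binds the ligand first. Its probe set 208944_at read 11.16 and 11.12 for OB SostKO, 11.16 and 11.23 for OB WT + rhDKK1, 11.08, 11.24 and 11.34 for OB WT + rhSOST, and 10.99 and 11.04 in untreated PC3. Every co-culture array was above both untreated arrays, by a mean of 0.17 ± 0.08 (SE) on the log2 scale that did not pass the threshold (adjusted p = 0.228). The second probe set, TGFBR2 207334_s_at, read between 5.87 and 6.21 on 6 co-culture arrays, 5.12 on array 3 of OB WT + rhSOST, and 5.90 and 6.28 in untreated PC3.

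TGFBR3, also called betaglycan, is a co-receptor without a kinase domain that presents TGF-beta, TGFB2 above all, to TGFBR2. It was the receptor that rose. TGFBR3 226625_at read 7.51 and 7.52 for OB SostKO, 7.64 and 7.53 for OB WT + rhDKK1, 7.38, 7.51 and 7.56 for OB WT + rhSOST, and 6.75 and 6.95 in untreated PC3. All 7 co-culture arrays were above both untreated arrays. The log2 fold change against untreated PC3 was 0.67 ± 0.10 for OB SostKO (1.59-fold, adjusted p = 0.0288), 0.74 ± 0.10 for OB WT + rhDKK1 (1.67-fold, adjusted p = 0.0197) and 0.63 ± 0.09 for OB WT + rhSOST (1.55-fold, adjusted p = 0.0151, SE throughout). The other TGFBR3 probe set, 204731_at, read 7.15 and 7.47 for OB SostKO, 7.45 and 7.0025 for OB WT + rhDKK1, 7.27, 7.28 and 7.23 for OB WT + rhSOST, and 6.68 and 6.99 in untreated PC3. It too was above both untreated arrays on all 7 co-culture arrays, though array 2 of OB WT + rhDKK1 exceeded the higher untreated array by only 0.01. Its log2 fold change was 0.43 ± 0.14 (SE) in the mean of the co-cultures and did not pass (adjusted p = 0.104). The difference between the 2 TGFBR3 probe sets was -0.25 ± 0.12 (SE, 204731_at minus 226625_at) and did not pass (adjusted p = 0.287). In the mean of the co-cultures TGFBR3 226625_at had 0.68 ± 0.08 (SE, adjusted p = 0.00557), and it lost the threshold only with untreated array 1 left out (0.58, adjusted p = 0.0667). In each single co-culture it lost it without untreated array 1 (adjusted p = 0.144 for OB SostKO, 0.111 for OB WT + rhDKK1 and 0.11 for OB WT + rhSOST) and without array 2 of OB WT + rhSOST (0.0645 for OB SostKO, 0.0507 for OB WT + rhDKK1 and 0.0676 for OB WT + rhSOST). With OB SostKO, so did leaving out either OB SostKO array, either OB WT + rhDKK1 array or untreated array 2, and with OB WT + rhDKK1 either of its own arrays, with adjusted p between 0.0579 and 0.169.

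SMAD2, one of the SMADs that TGFBR1 phosphorylates, had 5 kept probe sets that stayed close together. Their log2 fold changes in the mean of the co-cultures ran between 0.01 and 0.21, and none passed. SMAD2 226563_at was the highest of them. It read 8.26 and 8.18 for OB SostKO, 8.18 and 8.22 for OB WT + rhDKK1, 8.22, 8.39 and 8.37 for OB WT + rhSOST, and 8.01 and 8.07 in untreated PC3, a difference of 0.21 ± 0.07 (SE) on the log2 scale with adjusted p = 0.116. None of the 4 differences between a SMAD2 probe set and the brightest one, 203075_at, passed, and they spanned -0.11 to 0.09 on the log2 scale. SMAD2 239271_at was below the filter, at 4.04 or less on all arrays.

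SMAD3, the other receptor-activated SMAD of the pathway, had 4 kept probe sets that differed in how far they moved. SMAD3 205397_x_at read 6.65 and 6.83 for OB SostKO, 6.996 and 6.76 for OB WT + rhDKK1, 6.79, 6.61 and 7.31 for OB WT + rhSOST, and 7.85 and 7.62 in untreated PC3. All 7 co-culture arrays were below both untreated arrays. The log2 fold change was -0.99 ± 0.22 for OB SostKO, -0.86 ± 0.22 for OB WT + rhDKK1 and -0.83 ± 0.20 for OB WT + rhSOST (SE, adjusted p = 0.0674, 0.0907 and 0.0614), and SMAD3 205397_x_at passed only in the mean of the co-cultures, at -0.89 ± 0.17 (adjusted p = 0.0261). SMAD3 205398_s_at was also below both untreated arrays on every co-culture array, between 8.88 and 9.11 in co-cultures against 9.17 and 9.55 in untreated PC3, with a log2 fold change of -0.33 ± 0.11 (SE) that did not pass (adjusted p = 0.104). The brightest probe set, SMAD3 218284_at, had -0.15 ± 0.07 (adjusted p = 0.244), and SMAD3 205396_at, which reached the filter level on 6 arrays, had -0.06 ± 0.11 (adjusted p = 0.782). The difference of SMAD3 205397_x_at from 218284_at was -0.74 ± 0.16 (SE) on the log2 scale and missed the threshold (adjusted p = 0.0583). The suffix _x_at marks a probe set whose oligonucleotides can match other sequences as well. Array 3 of OB WT + rhSOST was the co-culture array nearest to untreated PC3 for this probe set, and without it SMAD3 205397_x_at passed in each co-culture (adjusted p = 0.0126 for OB SostKO, 0.0194 for OB WT + rhDKK1 and 0.0109 for OB WT + rhSOST). In the mean of the co-cultures it lost the threshold without array 1 of OB SostKO, either OB WT + rhDKK1 array or either untreated array (adjusted p = 0.0528, 0.0525, 0.0632, 0.2 and 0.0838).

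SMAD4, the shared partner of the receptor-activated SMADs, had 2 kept probe sets. SMAD4 235725_at read 7.42 and 7.30 for OB SostKO, 7.32 and 7.32 for OB WT + rhDKK1, 7.32, 7.41 and 7.40 for OB WT + rhSOST, and 6.78 and 7.11 in untreated PC3. The co-culture arrays lay within 0.11 of each other and above both untreated arrays. SMAD4 235725_at passed in the mean of the co-cultures, with a log2 fold change of 0.41 ± 0.09 (SE, 1.33-fold, adjusted p = 0.0387), and in no single co-culture with all arrays. Without untreated array 2 it passed for OB WT + rhSOST (0.60, adjusted p = 0.0437). The brighter SMAD4 202527_s_at read 8.64 and 9.09 for OB SostKO, 9.28 and 8.90 for OB WT + rhDKK1, 8.79, 9.29 and 9.26 for OB WT + rhSOST, and 9.06 and 9.29 in untreated PC3, with a log2 fold change of -0.15 ± 0.18 (SE, adjusted p = 0.646). The difference of SMAD4 235725_at from 202527_s_at, 0.56 ± 0.18 (SE) on the log2 scale, did not pass (adjusted p = 0.141). SMAD4 235725_at lost the threshold with either OB SostKO array, either OB WT + rhDKK1 array, array 1 or 2 of OB WT + rhSOST or untreated array 1 left out, with adjusted p between 0.0583 and 0.254. Of the 3 SMAD4 probe sets below the filter, 202526_at and 1565702_at overlapped between co-cultures and untreated PC3, while 1565703_at lay between 4.04 and 4.74 in co-cultures, above 3.43 and 3.52 in untreated PC3, and was not tested.

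**Figure D2:**
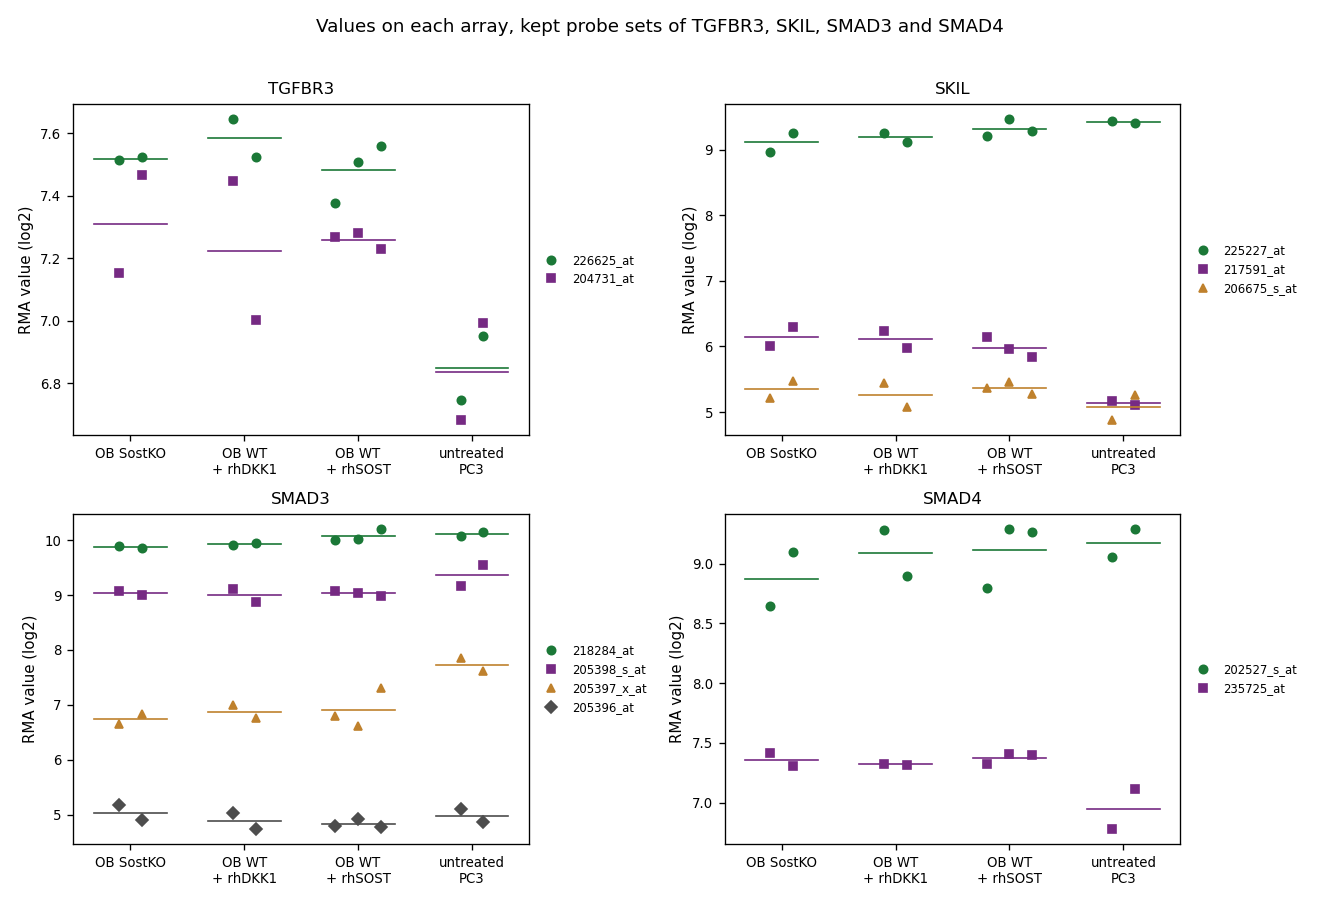
RMA values (y axis, log2) of the kept probe sets of TGFBR3, SKIL, SMAD3 and SMAD4 on each array (points) by group (x axis), with the group mean as a line. Untreated PC3 sits below every co-culture array for TGFBR3 226625_at, SKIL 217591_at and SMAD4 235725_at, and above every one for SMAD3 205397_x_at.

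SKIL is both a repressor of the SMADs and a gene that TGF-beta induces, and its probe sets moved unequally. SKIL 217591_at read 6.002 and 6.30 for OB SostKO, 6.23 and 5.98 for OB WT + rhDKK1, 6.15, 5.96 and 5.83 for OB WT + rhSOST, and 5.18 and 5.11 in untreated PC3. The lowest co-culture array was 0.66 above the higher untreated array. The log2 fold change was 1.005 ± 0.14 for OB SostKO (2.01-fold, adjusted p = 0.0236), 0.96 ± 0.14 for OB WT + rhDKK1 (1.95-fold, adjusted p = 0.0228) and 0.84 ± 0.13 for OB WT + rhSOST (1.79-fold, adjusted p = 0.0185, SE throughout).

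The brightest SKIL probe set did not rise with it. SKIL 225227_at read 8.97 and 9.26 for OB SostKO, 9.26 and 9.12 for OB WT + rhDKK1, 9.22, 9.46 and 9.28 for OB WT + rhSOST, and 9.44 and 9.40 in untreated PC3, with a log2 fold change of -0.21 ± 0.10 (SE) in the mean of the co-cultures (adjusted p = 0.231). SKIL 206675_s_at had 0.26 ± 0.14 (adjusted p = 0.29) and overlapped with untreated PC3. The difference of SKIL 217591_at from 225227_at was 1.15 ± 0.12 (SE) on the log2 scale in the mean of the co-cultures. It passed the threshold over all 13381 differences between probe sets of 1 gene (adjusted p = 0.0146), where 2.54% of all differences passed, and was the only one of 19 member differences to do so. In single co-cultures the same difference was 1.31 ± 0.15 for OB SostKO (adjusted p = 0.0607), 1.196 ± 0.15 for OB WT + rhDKK1 (adjusted p = 0.0596) and 0.94 ± 0.14 for OB WT + rhSOST (SE, adjusted p = 0.035), where 0.00747%, 0.0149% and 1.05% of all differences passed. A difference of this kind shows unequal change, not which probe set follows the SKIL messenger RNA. The other 2 SKIL probe sets, 215889_at and 232379_at, stayed at or under 3.81 on all arrays and were below the filter. In the mean of the co-cultures SKIL 217591_at had 0.93 ± 0.12 (SE, adjusted p = 0.00605) and lost the threshold only without untreated array 1 (0.97, adjusted p = 0.0664). In single co-cultures it lost it without either untreated array, without array 2 of OB WT + rhSOST, without either of the arrays of OB SostKO or OB WT + rhDKK1 in their own comparison, and without array 1 of OB WT + rhSOST in that of OB WT + rhSOST (adjusted p between 0.0512 and 0.179). The difference from 225227_at in the mean lost it without either OB WT + rhDKK1 array or either untreated array.

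SKI, the founding member of the repressor family, held the largest difference among the members and the widest spread within a group. SKI 204270_at read 8.89 and 9.09 for OB SostKO, 8.71 and 8.56 for OB WT + rhDKK1, 8.89, 8.08 and 6.68 for OB WT + rhSOST, and 6.53 and 7.20 in untreated PC3. On 6 co-culture arrays the value was above both untreated arrays by 0.88 or more, while array 3 of OB WT + rhSOST lay between the untreated arrays. The log2 fold change was 2.13 ± 0.59 for OB SostKO (4.37-fold, 95% interval 0.76 to 3.49), 1.77 ± 0.59 for OB WT + rhDKK1 (3.41-fold, 0.41 to 3.13) and 1.02 ± 0.54 for OB WT + rhSOST (2.03-fold, -0.22 to 2.27, SE throughout). None passed, with adjusted p = 0.118, 0.166 and 0.331, nor did the mean of the co-cultures at 1.64 ± 0.48 (adjusted p = 0.0795). With array 3 of OB WT + rhSOST left out, the spread within groups fell and SKI 204270_at passed in each co-culture. The log2 fold changes were then 2.13, 1.77 and 1.62, with adjusted p = 0.0143, 0.0239 and 0.028. The share of all probe sets that passed without this array is not given here. With each array left out in turn, the log2 fold change of SKI 204270_at ran from 1.79 to 2.46 for OB SostKO. It ran from 1.43 to 2.11 for OB WT + rhDKK1 and from 0.52 to 1.62 for OB WT + rhSOST.

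The other SKI probe sets did not follow it. SKI 229265_at, the brightest, read 10.53 and 10.81 for OB SostKO, 10.82 and 10.68 for OB WT + rhDKK1, 11.16, 10.88 and 11.05 for OB WT + rhSOST, and 10.60 and 11.005 in untreated PC3, a log2 fold change of 0.01 ± 0.13 (SE) in the mean of the co-cultures. SKI 213755_s_at stayed between 6.04 and 6.39 in co-cultures and read 6.26 and 6.16 in untreated PC3, a log2 fold change of -0.02 ± 0.10. Over the 9 arrays, which share groups and a normalization, the Pearson correlation of SKI 204270_at was -0.11 with 229265_at and 0.02 with 213755_s_at. The difference of SKI 204270_at from 229265_at, 1.63 ± 0.46 (SE) on the log2 scale in the mean of the co-cultures, did not pass (adjusted p = 0.102).

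Probe sets of other genes shared the array pattern of SKI 204270_at. Of 28241 kept probe sets of other genes, 684 had a Pearson correlation above 0.9 with it over the 9 arrays. The closest was TGIF2 218724_s_at (0.99), followed by FDX1 203647_s_at, DICER1 213229_at, CEP350 213956_at and SNTB2 205315_s_at (0.98 to 0.99). TGIF2 is itself a corepressor of SMAD-driven transcription. TGIF2 218724_s_at read 8.01 and 7.99 for OB SostKO, 7.88 and 7.55 for OB WT + rhDKK1, 7.86, 7.34 and 6.47 for OB WT + rhSOST, and 6.38 and 6.73 in untreated PC3. As for SKI, array 3 of OB WT + rhSOST lay between the untreated arrays, and a second probe set of the gene, TGIF2 216262_s_at, stayed between 8.46 and 8.63 in co-cultures and read 8.58 and 8.61 in untreated PC3. The log2 fold change in the mean of the co-cultures was 1.09 ± 0.30 for TGIF2 218724_s_at (SE, adjusted p = 0.0708) and -0.08 ± 0.06 for 216262_s_at (adjusted p = 0.499). Array 3 of OB WT + rhSOST also had the highest 3' minus 5' difference of GAPDH, 0.42 against 0.12 to 0.24 on the other arrays, while that of ACTB, at 1.32, lay within the range of the other co-culture arrays (0.99 to 2.06). The part of RNA quality in these values was not tested.

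**Figure D3:**
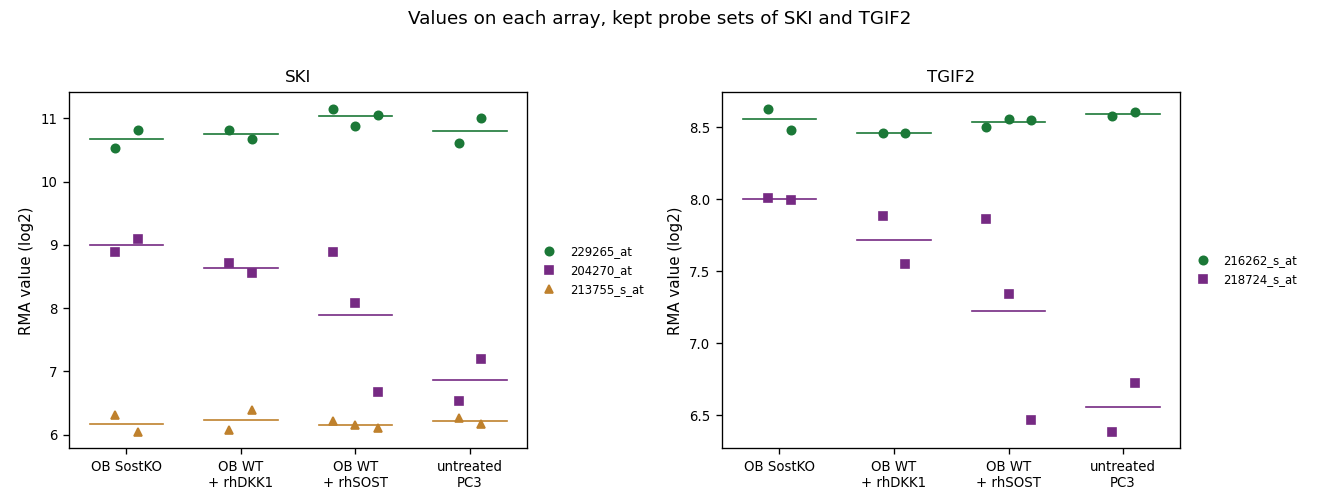
RMA values (y axis, log2) of the kept probe sets of SKI and TGIF2 on each array (points) by group (x axis), with the group mean as a line. SKI 204270_at and TGIF2 218724_s_at are high on 6 co-culture arrays and near untreated PC3 on array 3 of OB WT + rhSOST, at 6.68 and 6.47. For the other probe sets of both genes, the untreated arrays lie within the range of the co-culture arrays.

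The co-cultures were not told apart by any member. In the direct comparisons of OB SostKO against OB WT + rhDKK1, of OB SostKO against OB WT + rhSOST, and of OB WT + rhDKK1 against OB WT + rhSOST, limma passed 0 of 29 member probe sets and 0 of 33970 overall (0% of all in each). At an unadjusted p under 0.05 the members counted 0, 2 and 0, against 0.854%, 3.43% and 2.33% of all kept probe sets, and with a 2-fold change also required 0 in each, against 0%, 0.0118% and 0.00294% of all. The 2 were SMAD3 218284_at, at -0.21 ± 0.08, and SKI 229265_at, at -0.36 ± 0.15 (SE, log2 difference of OB SostKO from OB WT + rhSOST, adjusted p = 0.843 for both). The intervals stay wide for SKI 204270_at, where OB SostKO exceeded OB WT + rhSOST by 1.10 on the log2 scale (95% interval -0.14 to 2.35). They were narrower for TGFBR3 226625_at, at 0.04 (-0.18 to 0.25), and for SKIL 217591_at, at 0.17 (-0.14 to 0.47). For SKI 204270_at the group means ran in the order OB SostKO, OB WT + rhDKK1, OB WT + rhSOST and untreated PC3, and no neighbors in that order differed past the threshold.

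Around the members, other genes of the pathway were taken from 2 lists, one of further ligands, receptors and regulators and one of known TGF-beta targets. SKIL, itself a target, was counted as a member and is left out here. Both lists were drawn up with earlier results of these data known, so their shares beside all probe sets are descriptive. Of 54 listed genes, 50 had a kept probe set, with 113 probe sets in all, and 3 were not analysed here. In the mean of the co-cultures, 8 of the 113 probe sets were higher (4.44% of all kept probe sets were) and 13 were lower (2.75% of all). Of the 20 target genes with a kept probe set, 10 were lower and 1 was higher in at least 1 probe set. By the brightest probe set of each gene, 8 were lower and 0 higher. The share of all genes by these 2 rules was not counted. The median log2 fold change of the targets by their brightest probe set was -0.22, against -0.0039 for all genes. Counted by probe set, 6 of the 37 of the targets were lower and 1 was higher for OB SostKO (against 0.718% lower and 0.901% higher of all kept probe sets), 4 and 1 for OB WT + rhDKK1 (0.721% and 1.03%), 7 and 1 for OB WT + rhSOST (1.32% and 2.66%), and 10 and 1 in the mean (2.75% and 4.44%). The counts moved with single arrays, and the share of all genes in the fits with an array left out is not given here. With untreated array 1 left out, 2 of the 50 genes passed in the mean of the co-cultures, with untreated array 2 left out 8 did, and with array 3 of OB WT + rhSOST left out 23 did, against 20 with all arrays.

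SMAD7, the inhibitory SMAD that TGF-beta induces as a brake on its own receptors, was lower. SMAD7 204790_at read 5.51 and 5.74 for OB SostKO, 5.81 and 5.42 for OB WT + rhDKK1, 5.93, 5.81 and 5.81 for OB WT + rhSOST, and 6.29 and 6.47 in untreated PC3. Its log2 fold change was -0.76 ± 0.14 for OB SostKO (adjusted p = 0.048), -0.76 ± 0.14 for OB WT + rhDKK1 (adjusted p = 0.0447) and -0.53 ± 0.13 for OB WT + rhSOST (SE, adjusted p = 0.0655). CCN2, the connective tissue growth factor, fell by nearly the same amount in each co-culture. CCN2 209101_at read 9.67 and 9.73 for OB SostKO, 9.73 and 9.67 for OB WT + rhDKK1, 9.68, 9.76 and 9.58 for OB WT + rhSOST, and 10.32 and 10.33 in untreated PC3, and its log2 fold change lay between -0.65 and -0.62 with adjusted p of 0.0202 or less in each co-culture. CDKN1A, the cell cycle inhibitor p21, had 8.46 and 8.29 for OB SostKO, 8.23 and 8.35 for OB WT + rhDKK1, 8.51, 8.35 and 8.38 for OB WT + rhSOST, and 9.12 and 9.23 in untreated PC3 at probe set 202284_s_at (log2 fold change -0.82 ± 0.08, SE, in the mean, adjusted p = 0.00281). The co-cultures and untreated PC3 did not overlap for any of these 3 genes.

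Further targets fell with them in the mean of the co-cultures. KLF10, an early TGF-beta response gene, fell by 0.49 ± 0.07 and TPM1, a tropomyosin, by 0.52 ± 0.08 at 210987_x_at (SE, log2 scale, adjusted p = 0.0116 and 0.013). This TPM1 probe set has the _x_at suffix too, and no other TPM1 probe set passed. TPM1 206116_s_at and 210986_s_at were below both untreated arrays on all co-culture arrays, while 206117_at, 238688_at and 1558532_at overlapped with untreated PC3. ID3, an inhibitor of DNA binding that responds to the related BMP ligands and that TGF-beta can lower in epithelial cells, fell by 0.81 ± 0.10 (adjusted p = 0.0057). JUNB, MYC, TSC22D1 and ANGPTL4 completed the 10, at -0.47, -0.43, -0.53 and -0.65. The values of TSC22D1 and ANGPTL4 are those of 215111_s_at and 223333_s_at, and no other probe set of either passed. TSC22D1 243133_at and ANGPTL4 221009_s_at were below both untreated arrays on all co-culture arrays, while TSC22D1 235315_at overlapped with untreated PC3. MYC is, in epithelial cells, a gene that TGF-beta is known to repress. The member SKIL, also a target, was higher at 217591_at and not at 225227_at. Outside the members, TAGLN, an actin-binding protein of contractile cells, was the target that rose, by 0.69 ± 0.08 at 205547_s_at (SE, log2 scale, adjusted p = 0.00471). TAGLN 1555724_s_at had 0.22 ± 0.08 (adjusted p = 0.14) and TAGLN 226523_at 0.01 ± 0.10 (adjusted p = 0.958), and neither passed. TGFBI, a matrix protein, had -0.19 ± 0.10 (adjusted p = 0.256). PMEPA1, a membrane protein that holds back SMAD2 and SMAD3, had values between -0.14 and 0.24 over its 3 probe sets, none of which passed.

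Of the 33 regulators with a kept probe set, 7 were higher and 3 lower in the mean of the co-cultures (7 and 4 of 82 probe sets, against 4.44% higher and 2.75% lower of all kept probe sets), and ligand genes of the activin branch moved both ways. INHBA encodes the activin A subunit. INHBA 227140_at read 11.05 and 11.07 for OB SostKO, 11.05 and 11.12 for OB WT + rhDKK1, 11.01, 11.12 and 11.13 for OB WT + rhSOST, and 11.47 and 11.46 in untreated PC3 (log2 fold change -0.39 ± 0.06, SE, in the mean, adjusted p = 0.0139). The brightest INHBA probe set, 210511_s_at, and INHBA 204926_at did not pass, though both were below the untreated arrays on every co-culture array. INHBB, the activin B subunit, was higher, with 12.63 and 12.47 for OB SostKO, 12.67 and 12.63 for OB WT + rhDKK1, 12.58, 12.59 and 12.62 for OB WT + rhSOST, and 12.06 and 12.20 in untreated PC3 (0.47 ± 0.07, adjusted p = 0.011). Thrombospondin 1, which can release TGF-beta from its latent form, had -0.83 ± 0.10 at THBS1 235086_at and -0.52 ± 0.11 at 201109_s_at (SE, log2 scale, adjusted p = 0.00495 and 0.0318), while its other 5 probe sets ran between -0.29 and 0.19 and did not pass. GDF15, a distant relative of the ligands, was higher by 0.39 ± 0.06 at 221577_x_at (adjusted p = 0.0118) and had -0.11 ± 0.15 at 221576_at. The type II activin receptors ACVR2A and ACVR2B, SMAD1 of the BMP branch, and the ubiquitin ligases NEDD4L and TRIM33 were each higher at 1 probe set, by 0.31 to 0.56. The brightest probe sets of ACVR2A, ACVR2B and NEDD4L (205327_s_at, 236126_at and 212445_s_at) overlapped with untreated PC3. Those of SMAD1 and TRIM33 (227798_at and 210266_s_at) were above both untreated arrays on every co-culture array. The TRIM33 one passed in the mean of the co-cultures, while the SMAD1 one did not. TGFB3, the third ligand, had -0.03 ± 0.07 (adjusted p = 0.834), and TGIF1, a corepressor like TGIF2, had values between -0.08 and 0.43 over 3 probe sets, none of which passed.

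**Figure D4:**
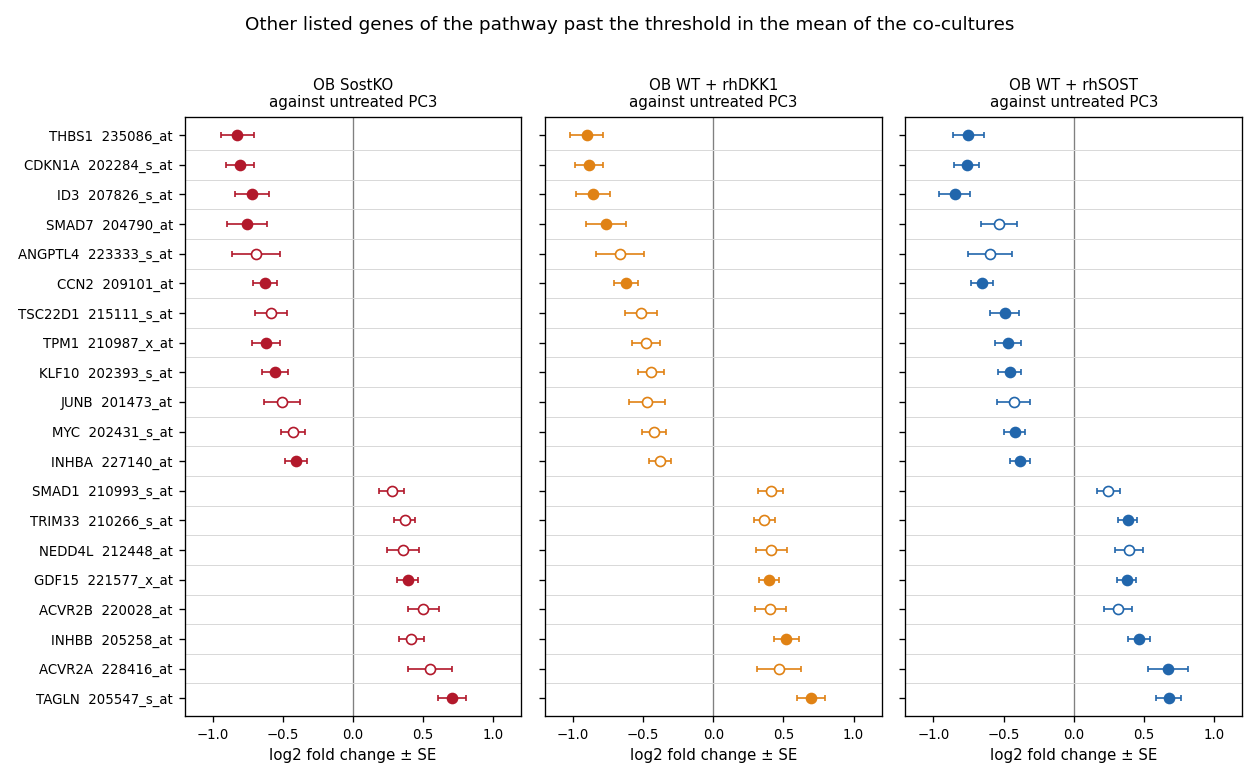
Log2 fold change (x axis, ± SE) of the 20 further pathway genes that passed in the mean of the co-cultures (rows, each by its probe set with the smallest p), for OB SostKO (left), OB WT + rhDKK1 (middle) and OB WT + rhSOST (right) against untreated PC3. Filled points passed an adjusted p under 0.05 in that comparison, and the 12 genes that were lower include CDKN1A at -0.80, -0.89 and -0.76 and CCN2 at -0.62, -0.63 and -0.65.

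The promoters of SKIL and SMAD7, which TGF-beta is known to induce, and of TGFBR3 are shown because SKIL 217591_at and TGFBR3 226625_at were higher and SMAD7 204790_at was lower in the mean of the co-cultures, and because SMAD3 and SMAD4 are known to bind the short motif CAGAC. RefSeq windows of GRCh38.p14 were searched for CAGAC on both strands (GTCTG on the printed strand) in the 250 bases before each annotated start. Of all 35116 windows, 38.0% hold it, as do 8 of the 22 windows of the 9 members matched (all but SKI). The capitals mark the motif. The SKIL window lies at chr3:170357465-170357714 on the plus strand, the TGFBR3 window at chr1:91886152-91886401 on the minus strand, before a start inside the annotated gene, and the SMAD7 window, the outermost of its 3, at chr18:48950966-48951215 on the minus strand.
SKIL: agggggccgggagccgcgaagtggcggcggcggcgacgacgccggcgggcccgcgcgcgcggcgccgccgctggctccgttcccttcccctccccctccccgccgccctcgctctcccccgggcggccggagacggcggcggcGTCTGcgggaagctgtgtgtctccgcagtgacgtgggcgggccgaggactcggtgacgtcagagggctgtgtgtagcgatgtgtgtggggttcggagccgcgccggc
TGFBR3: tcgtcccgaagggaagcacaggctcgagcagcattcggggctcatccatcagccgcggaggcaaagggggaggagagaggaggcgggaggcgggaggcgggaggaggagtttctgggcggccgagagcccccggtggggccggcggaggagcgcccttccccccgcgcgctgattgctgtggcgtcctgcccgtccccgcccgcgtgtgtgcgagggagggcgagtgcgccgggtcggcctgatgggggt
SMAD7: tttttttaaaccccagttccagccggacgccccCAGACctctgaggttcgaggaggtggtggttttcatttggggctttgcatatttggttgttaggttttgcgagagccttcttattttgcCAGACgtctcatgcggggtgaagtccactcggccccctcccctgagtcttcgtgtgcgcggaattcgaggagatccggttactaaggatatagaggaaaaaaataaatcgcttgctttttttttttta
The SKIL window holds the motif 1 time, the printed SMAD7 window 2 times and the TGFBR3 window 0 times. The SMAD7 windows that are not printed hold it 1 and 0 times. With 38.0% of all windows holding it, these matches describe the sequences and say nothing of binding in PC3 cells.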

How the data were processed

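The deposited values are log2 expression levels that the authors computed by RMA (named in the submitters' processing notes), in which the background is corrected, the arrays are brought to a common distribution and each probe set is summarized. The software and its version are not given in the sources used here. Precision is limited by the number of arrays.

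The tests used limma 3.58.1 under R 4.3.3. From the 54675 probe sets, 62 controls were removed, and the filter at the 40th percentile of an array, to be reached on 2 arrays or more, kept 33970. Probe sets were named from the platform's annotation, with symbols updated to RefSeq for GRCh38.p14, and those with several symbols were not used as genes. A mean for each of 4 groups was fitted to all 9 arrays, and p-values were adjusted by the Benjamini-Hochberg method over all kept probe sets, with adjusted p under 0.05 as the threshold. Differences between probe sets of 1 gene were fitted in the same way, each against the gene's brightest kept probe set. No fold was required. As alternatives, the paired t-test and an ANOVA with Tukey's procedure, which the study's methods name without saying for which data, were also run, as were other filters and thresholds, cyclic loess, the brightest or mean probe set of a gene, the replicate number as a block and each array left out.

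The members and lists were chosen with earlier results of these data known. All members were named, with 9 pathway genes set by name, of which 8 were analysed, those with the smallest p in the mean of the co-cultures (at most 10) and the 5 probe sets most like the member with the largest change. Other genes are named to complete a count, after their values were seen. Same-numbered arrays did not deviate together throughout (correlations between -0.54 and 0.43), so the replicate numbers were not used as pairs.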

Additional observations from a re-analysis of the deposited data

Results flagged for a closer look

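SMAD4 1565703_at, which was below the filter and was not tested, lay above both untreated arrays on all 7 co-culture arrays. It read 4.04 and 4.36 for OB SostKO, 4.24 and 4.04 for OB WT + rhDKK1, 4.24, 4.38 and 4.74 for OB WT + rhSOST, and 3.43 and 3.52 in untreated PC3, a difference of 0.82 on the log2 scale between the mean of the co-culture arrays and that of the untreated arrays. These values lie under the 40th percentile of their arrays, which was at 4.82 to 4.92.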

How the results depend on the processing

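The arrays per group, 2 or 3, set the precision. Except where given above, the share of all probe sets past the threshold under each alternative is not given here. The counts below therefore describe how far they move with the setting. They do not show whether the members moved more than all probe sets. With each array left out in turn, the members past the threshold ranged from 0 to 4 in each co-culture against untreated PC3 (2 each in all) and from 0 to 5 in the mean of the co-cultures (4 in all). The within-gene differences ranged from 0 to 2 with OB SostKO and with OB WT + rhDKK1 (0 each in all) and from 0 to 3 with OB WT + rhSOST and in the mean (1 each in all). The other pathway genes ranged from 0 to 16 with OB SostKO (10 in all), 0 to 16 with OB WT + rhDKK1 (8), 1 to 16 with OB WT + rhSOST (14) and 2 to 23 in the mean (20). Given first for OB SostKO, then for OB WT + rhDKK1 and last for OB WT + rhSOST, each against untreated PC3, the members past the threshold were 2, 2 and 4 without the filter, 1, 1 and 2 with a 60th percentile filter, and 0, 0 and 0 when only the 2 groups compared were fitted, where fewer arrays estimate the spread. They were 1, 0 and 0 with a 2-fold change added to the threshold, 2, 1 and 0 with an unadjusted p and a 2-fold change, and 9, 7 and 8 with an unadjusted p alone. They were 1, 1 and 1 both for the brightest kept probe set of a gene and for their mean, where 1 value stands for each gene. The ANOVA with Tukey's procedure gave 3, 2 and 4 unadjusted and 0, 0 and 0 after Benjamini-Hochberg adjustment, and the methods' paired t-test gave 1, 3 and 4 unadjusted and 0, 0 and 0 adjusted. In the mean of the co-cultures the count was 0 with a 2-fold change added, 1 with an unadjusted p and a 2-fold change, 9 with an unadjusted p, 1 for the brightest probe set and 2 for the mean of probe sets. Between co-cultures, OB SostKO against OB WT + rhSOST gave 2 with an unadjusted p and 1 with the paired t-test, and OB WT + rhDKK1 against OB WT + rhSOST gave 1 with the paired t-test. With the replicate number as a block, which leaves array 3 of OB WT + rhSOST without a partner, the counts were 4, 3 and 2, and 4 in the mean. With the numbers of OB WT + rhDKK1 crossed they were 4, 4 and 4, and the block gave 2, 2 and 0 within-gene differences and 3 in the mean. A 60th percentile filter gave 0 within-gene differences with OB WT + rhSOST and in the mean, and the mean of the other probe sets of a gene as the reference gave 0 with OB WT + rhSOST. The cause of these shifts was not tested. The crossed block and the unadjusted p alone were chosen after seeing the data. Cyclic loess moved no count past 1.5 times. No called member probe set changed direction under any alternative. Of 116 member results, 41 crossed 0 with an array left out, none of them called, and 19 did so at over 1 SE from the value with all arrays. The log2 fold changes of these 19 ranged as follows. TGFB1 203084_at spanned -0.13 to 0.0831 for OB SostKO, -0.12 to 0.10 for OB WT + rhDKK1, -0.13 to 0.0831 for OB WT + rhSOST and -0.13 to 0.0894 in the mean, and TGFB1 203085_s_at spanned -0.54 to 0.32 for OB SostKO and -0.35 to 0.36 for OB WT + rhDKK1. TGFB2 209909_s_at spanned -0.15 to 0.20 for OB SostKO, -0.0022 to 0.25 for OB WT + rhSOST and -0.0631 to 0.19 in the mean, and TGFB2 220406_at spanned -0.0985 to 0.10 for OB SostKO. SMAD2 203075_at spanned -0.0171 to 0.19 for OB SostKO, and SMAD3 205396_at spanned -0.25 to 0.0558 for OB WT + rhDKK1 and -0.18 to 0.0561 in the mean. SKI 213755_s_at spanned -0.17 to 0.0922 for OB SostKO and -0.14 to 0.18 for OB WT + rhDKK1, SKI 229265_at spanned -0.33 to 0.0703 for OB SostKO, -0.26 to 0.14 for OB WT + rhDKK1 and -0.19 to 0.21 in the mean, and SKIL 206675_s_at spanned -0.0012 to 0.38 for OB WT + rhDKK1.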
